A study of Homo sapiens with 10 samples.

Results

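Protein phosphatase 2A (PP2A) is described here through 10 genes of its subunits, out of 26346 genes listed in the files: the catalytic subunits PPP2CA and PPP2CB, the scaffold subunits PPP2R1A and PPP2R1B, the B55 regulatory subunit PPP2R2A, and the B56 regulatory subunits PPP2R5A, PPP2R5B, PPP2R5C, PPP2R5D and PPP2R5E. They were matched by Ensembl gene identifier, and all 10 passed the minimum mean of 0.5 RPKM (reads per kilobase of transcript and per M reads, where M is 10 to the power 6). The genes, and in particular the isoform change of PPP2R1B, were chosen by results of this contrast, namely the gene sums and transcript usage in these same libraries, so their values are a description and carry no p-value.

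PP2A is a serine/threonine phosphatase that works as a trimer. A scaffold subunit built of helical repeats holds a catalytic subunit and a regulatory B subunit, and the B subunit directs the enzyme to its substrates. In beta cells PP2A activity is known for opposing kinases of insulin and survival signalling, among them AKT. The 2 scaffold genes encode similar proteins, PR65 alpha and PR65 beta, and the same is true of the catalytic pair.

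The libraries were made from EndoC-βH1 cells, an established insulin-producing line derived from human fetal pancreas with a viral large T antigen and telomerase. The cells received either a control siRNA (5 libraries) or the siRNA siSR#2 against SRp55 (5 libraries), the splicing factor encoded by SRSF6. SRp55 is an SR protein, a class that binds exonic RNA and affects exon inclusion. Both groups share the line and its culture, each group is called a set of independent preparations by the series' design text, and SRp55 was targeted with 1 siRNA, so effects on other targets of that siRNA cannot be told apart from effects of SRp55 loss. Polyadenylated RNA was sequenced in bulk, where fewer cells of a type and less RNA per cell cannot be told apart.

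SRSF6 averaged 98.2 ± 3.24 RPKM in control libraries and 24.9 ± 3.78 RPKM after SRp55 siRNA (SD, n = 5 each, as for every mean below), a ratio of 0.253. Between 61.9 and 189.8 M reads were assigned to transcripts per library. All 12 beta cell markers were measured, with summed levels of 12924 to 25158 RPKM in control and 18433 to 28548 RPKM after SRp55 siRNA, made up mostly of INS and CHGA (means of 6597 and 10254 RPKM in control). SLC30A8 was called higher and none lower, while IAPP, PDX1, NKX6-1 and NKX2-2 were not called but lower in all 5 same-numbered pairs, at ratios of 0.49, 0.80, 0.65 and 0.88. The part of these markers in the results below was not tested. Of 7 other islet, 6 acinar or duct and 7 mesenchymal, endothelial or immune markers analysed, 4, 2 and 2 reached 0.5 RPKM and none was called. The highest in control were SST (110 ± 76.5 RPKM), CD68 (41.4 ± 5.98), KRT19 (23.7 ± 4.54) and CPA1 (20.9 ± 4.74). PPY, PRSS1, CELA3A, PNLIP and VIM were listed at 0 in all libraries. Whether such a 0 reflects absence of the RNA was not tested. The summed levels of the islet, acinar or duct, and mesenchymal lists were 64.9 to 253 RPKM, 36.4 to 53.7 RPKM and 34.3 to 51.0 RPKM in control. After SRp55 siRNA they were 56.04 to 209.6 RPKM, 41.5 to 97.6 RPKM and 31.3 to 52.2 RPKM. Fold changes below are log2 values on the log2(RPKM + 0.5) scale, SRp55 siRNA over control siRNA, relative to the median tested gene, which itself was 0.11 higher in the deposited values. A gene is called at an adjusted p of 0.05 in limma over all 13630 genes tested. Calls and p-values test the change in the deposited values, which is larger by that 0.11 than the median-relative fold change printed, so both are given where a p-value is printed.

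PPP2R1B, the PR65 beta scaffold, was the 1 subunit gene of 10 called higher, and none was called lower, against 3.76% of all tested genes called higher and 1.25% called lower. PPP2R1B was also the 1 member whose groups did not overlap, a pattern held by 7.92% of all tested genes. The other 9 were not called. These calls did not use the pairing of libraries by replicate number. With the replicate number as a block, PPP2CA was called higher besides PPP2R1B, against 9.39% of all tested genes called higher. The median log2 fold change of the 10 genes was 0.10, and 8 of 10 lay above the median tested gene. The PPP2R1B difference did not appear in the sum of its coding transcripts: summed over transcripts annotated protein_coding, the gene averaged 20.0 ± 2.83 RPKM in control and 20.3 ± 1.90 RPKM after SRp55 siRNA. Within that sum, transcripts with the distal 3′ end described below averaged 6.88 ± 4.18 and 0.98 ± 0.11 RPKM, with overlapping groups. The other coding transcripts averaged 13.1 ± 1.84 and 19.4 ± 1.98 RPKM, with no overlap. This split was chosen after the transcripts' values were seen, and no background for such sums was computed.

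**Figure D1:**
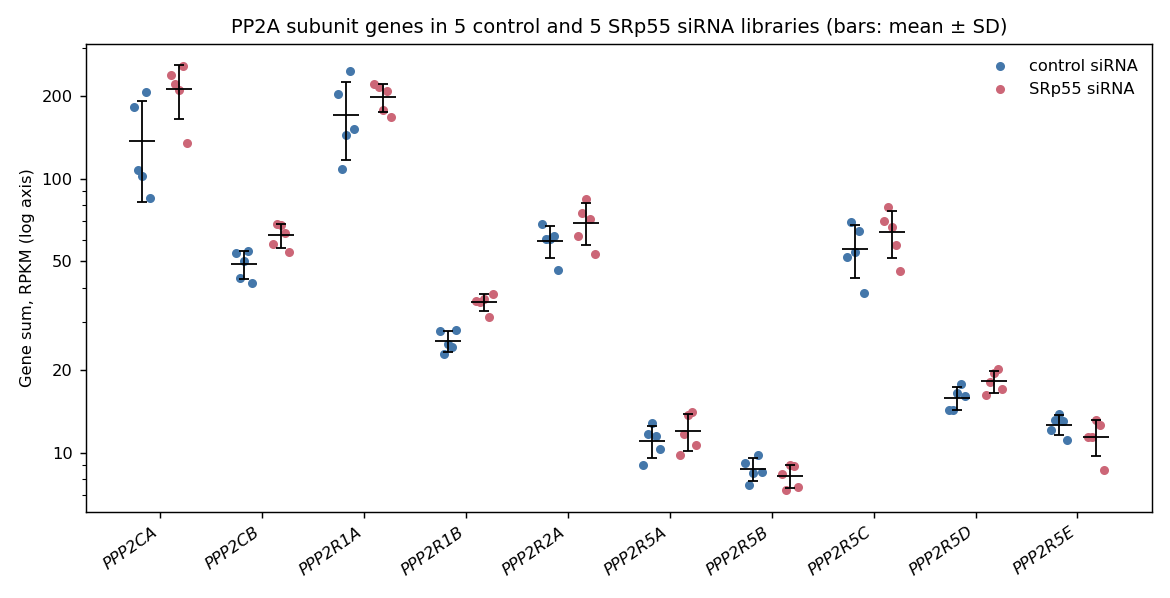
Gene sums in RPKM on a log axis for the 10 PP2A subunit genes, with a point per library and mean ± SD (n = 5 per group). PPP2R1B is the gene whose SRp55 siRNA libraries (31.3 to 38.0 RPKM) all lie above its control libraries (22.9 to 28.1 RPKM), while PPP2CA and PPP2R1A spread widest among control libraries.

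PPP2R1B (ENSG00000137713.11; GRCh37, chromosome 11, 111597632 to 111637151, minus strand) is listed with 13 transcripts. Its gene sum was 27.7, 22.9, 25.0, 24.3 and 28.1 RPKM in control replicates 1 to 5, and 35.9, 35.5, 36.4, 31.3 and 38.0 RPKM in SRp55 siRNA replicates 1 to 5. Every SRp55 siRNA library was above every control library. The mean went from 25.6 ± 2.26 to 35.4 ± 2.51 RPKM, a ratio of 1.38 and a log2 fold change of 0.35 (SE 0.10), or 0.46 in the deposited values that the call tests, and the gene was called in 10 of 17 alternative analyses. Its log2 fold change was 0.20 on summed reads, -0.047 over transcripts annotated protein_coding and 0.34 with median-of-ratios scaling, and it was called in none of these. It was not called without control replicate 2 (0.33), control replicate 3 (0.36), SRp55 siRNA replicate 2 (0.35) or SRp55 siRNA replicate 3 (0.34).

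The PPP2R1B transcripts differ at 3 places that matter for the values. GENCODE 44 gives the gene 16 exons in its longest-coding form, and the exon numbers used here are those of that form. The 101-base exon 3 is absent from ENST00000534500.1, a 582-base transcript annotated nonsense_mediated_decay, the class of transcripts whose early stop codon can lead to their degradation. The 135-base exon 9, whose length is a multiple of 3, is absent from ENST00000341980.6. The third place is the 3′ end, which is either a proximal last exon or the distal exons 15 and 16. The levels of such transcripts are estimates that divide the reads of shared exons among them, and the files give no error for that division.

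**Figure D2:**
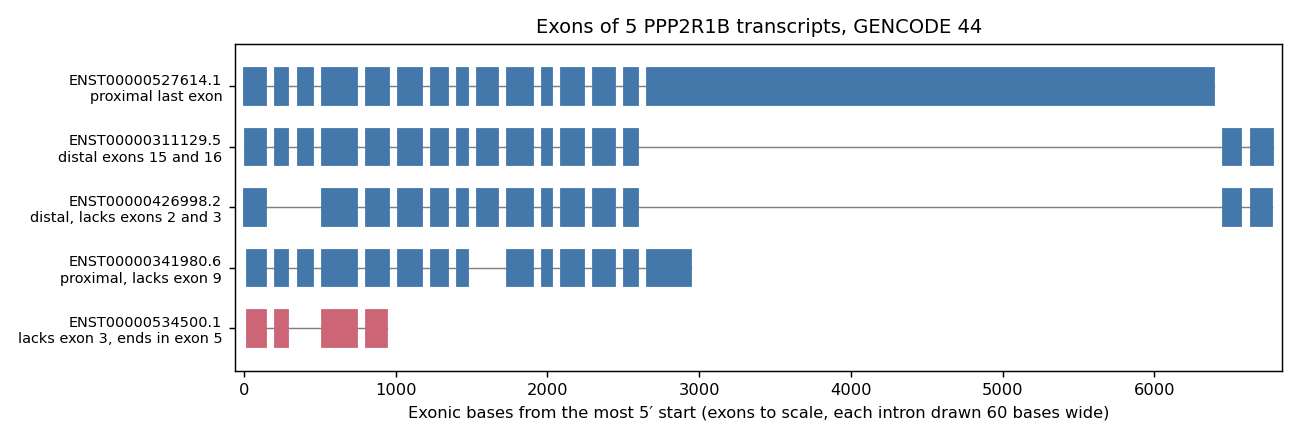
Exons of 5 PPP2R1B transcripts, to scale, along exonic bases from the 5′ end, with each intron drawn 60 bases wide. ENST00000527614.1 ends in the proximal last exon, ENST00000311129.5 and ENST00000426998.2 in distal exons 15 and 16, and ENST00000534500.1 (red) lacks exon 3 and ends in exon 5.

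The first pair of sequences shows exon 3 and what its absence does to the reading frame. Both were read from GENCODE 44 transcripts (GRCh38, chromosome 11, minus strand, exon 3 at chr11:111764805-111764905). In the upper sequence, capitals mark exon 3 between 30 bases of exon 2 and 30 bases of exon 4. In the lower one exon 2 joins exon 4 directly, and capitals mark the stop codon that the new frame meets after 44 bases of exon 4, which ends a reading frame of 83 codons.
exon 3 included: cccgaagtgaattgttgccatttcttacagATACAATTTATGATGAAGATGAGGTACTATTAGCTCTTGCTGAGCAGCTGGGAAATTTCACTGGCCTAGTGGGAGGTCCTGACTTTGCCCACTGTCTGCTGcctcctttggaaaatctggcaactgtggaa
exon 3 skipped: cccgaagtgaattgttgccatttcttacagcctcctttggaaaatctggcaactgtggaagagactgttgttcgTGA

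The second pair shows the alternative ends of the protein-coding frame. After the last 30 bases of exon 14, in lower case, capitals mark exon 15 (chr11:111737448-111737569) in the upper sequence, which the frame runs through into exon 16, and the first 17 bases of the proximal last exon (chr11:111741596-111741612), which include its stop codon, in the lower one. The distal end gives a frame of 667 codons in ENST00000311129.5, and the proximal end gives 601 codons in ENST00000527614.1.
distal end: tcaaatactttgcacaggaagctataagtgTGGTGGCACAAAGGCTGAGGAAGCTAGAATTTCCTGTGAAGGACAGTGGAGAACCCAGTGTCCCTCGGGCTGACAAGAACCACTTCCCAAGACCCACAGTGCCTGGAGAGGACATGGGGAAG
proximal end: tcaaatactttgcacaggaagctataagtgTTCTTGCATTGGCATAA

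ENST00000311129.5, the transcript with the distal end and all internal exons, had the largest usage shift of the gene (usage is a transcript's percent of its gene's RPKM). It held 27.8%, 47.0%, 26.7%, 23.8% and 0.89% of PPP2R1B in control replicates 1 to 5. In SRp55 siRNA replicates 1 to 5 it held 0.93%, 0.70%, 0.95%, 0.51% and 0.75%. The transcript was thus near 0 in all SRp55 siRNA libraries and also in control replicate 5, so the groups overlapped, although SRSF6 stood at 100.0 RPKM in that control library. Mean usage was 25.2% ± 16.4 in control and 0.77% ± 0.18 in SRp55 siRNA libraries, a difference of -24.5 percentage points, and -30.5 percentage points without control replicate 5.

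In RPKM, ENST00000311129.5 stood at 7.70, 10.7, 6.68, 5.79 and 0.25 in the control libraries and at 0.16 to 0.35 in the SRp55 siRNA libraries. The other transcript with the distal end, ENST00000426998.2, lacks exons 2 and 3 and has a frame of 603 codons. With it added, the distal end held 30.4%, 52.4%, 29.9%, 24.8% and 1.81% in control libraries and 2.20% to 3.07% in SRp55 siRNA libraries. By reads, the pair held 18.1% ± 10.97 of the gene in control and 1.97% ± 0.22 in SRp55 siRNA libraries. Exon 16 lies wholly, with 150 of its 150 bases, in exons of SIK2, a kinase gene on the other strand, whereas 0 bases of exon 15 do. SIK2 overlaps PPP2R1B by 3946 bases in the files and averaged 13.1 ± 1.41 RPKM in control and 14.4 ± 2.89 RPKM after SRp55 siRNA, a deposited log2 fold change of 0.12 (limma, adjusted p = 0.66). As no use of strand is given in the sources used here, reads of the 2 genes cannot be told apart where they overlap.

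**Figure D3:**
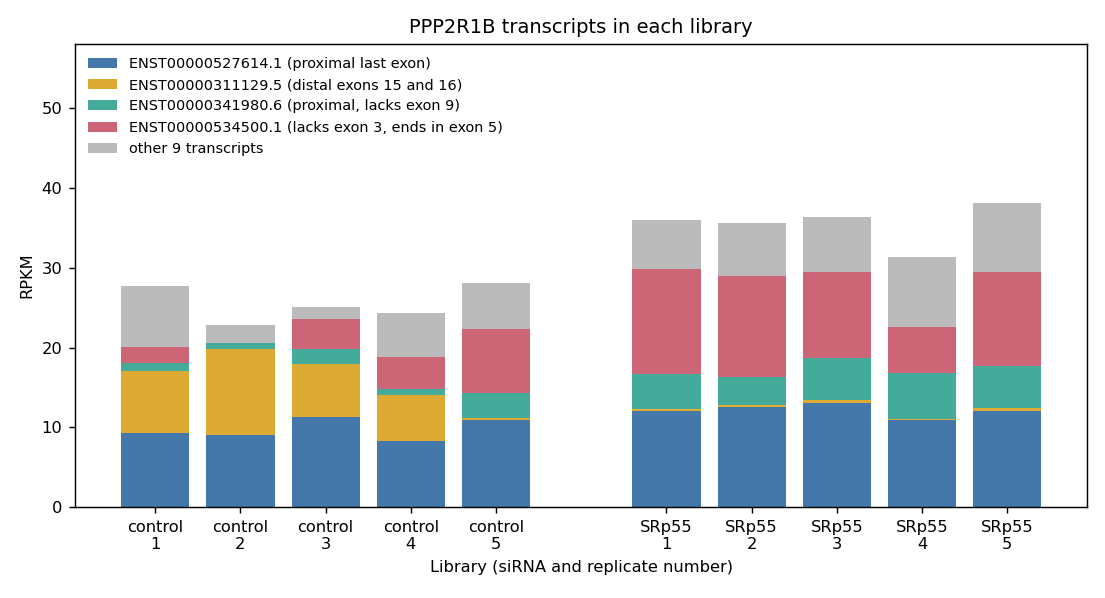
PPP2R1B transcripts in each library, as stacked bars in RPKM from 0. The distal-end transcript ENST00000311129.5 (yellow) fills 5.79 to 10.7 RPKM in control replicates 1 to 4 and at most 0.35 RPKM in control replicate 5 and in the SRp55 siRNA libraries, and the exon 3-skipping ENST00000534500.1 (red) spans 0 to 7.93 RPKM in control and 5.75 to 13.1 RPKM after SRp55 siRNA.

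ENST00000534500.1, which skips exon 3, moved the other way. Its level was 1.98, 0, 3.78, 3.98 and 7.93 RPKM in control replicates 1 to 5. In SRp55 siRNA replicates 1 to 5 it was 13.1, 12.6, 10.8, 5.75 and 11.7 RPKM. It was higher with SRp55 siRNA in all 5 same-numbered pairs, and the groups overlapped through control replicate 5 and SRp55 siRNA replicate 4. Its usage was 13.4% ± 10.6 in control and 30.2% ± 7.20 in SRp55 siRNA libraries, a difference of 16.8 percentage points. By reads it held 2.56% and 6.49% of the gene, as it is short: 0 to 1038 reads per library were assigned to it, of 6198 to 18333 for the gene. Both transcripts without exon 3 together averaged 4.19 ± 2.60 and 11.5 ± 2.96 RPKM.

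Of the 9.82 RPKM by which the PPP2R1B sums of the 2 groups differed, 7.26 RPKM lay in ENST00000534500.1. Without that transcript the gene stood at 25.7, 22.9, 21.3, 20.3 and 20.2 RPKM in control and at 22.8, 22.9, 25.6, 25.5 and 26.3 RPKM after SRp55 siRNA, and the groups overlapped. Within the sum of coding transcripts, those with the distal end were 5.91 RPKM lower on average with SRp55 siRNA. Those without it were at 13.3 to 14.9 RPKM in 4 control libraries, lower in control replicate 2, and at 17.5, 17.4, 20.1, 22.1 and 19.8 RPKM after SRp55 siRNA, with no overlap. These sums were chosen after the transcripts' values were seen.

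ENST00000341980.6, which skips the in-frame exon 9 and has a frame of 556 codons, was among the proximal transcripts that were higher. It stood at 1.01, 0.75, 1.80, 0.71 and 3.20 RPKM in control and at 4.39, 3.46, 5.27, 5.79 and 5.35 RPKM after SRp55 siRNA, again with control replicate 5 the highest control and no overlap. Its usage was 5.68% ± 3.61 in control and 13.8% ± 3.24 in SRp55 siRNA libraries. ENST00000527614.1, the form with all internal exons and the proximal end, was the leading transcript, with 38.3% ± 4.68 of the RPKM in control and 34.3% ± 1.69 in SRp55 siRNA libraries. It averaged 9.78 and 12.1 RPKM, and held 68.4% and 70.5% of the gene's reads. Over the gene, transcripts annotated protein_coding made up 78.9% ± 15.1 of the RPKM in control and 57.9% ± 9.04 in SRp55 siRNA libraries, and those annotated nonsense_mediated_decay 13.5% ± 10.6 and 31.8% ± 9.55.

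For transcript usage, PPP2R1B was the 1 member called of 8 that had at least 2 transcripts to test, against 0.343% of the 9915 genes tested (limma's diffSplice, with some transcript shifted by 10 percentage points or more). As the isoform change chose the gene, nothing is read from this count. The call was absent without control replicate 2 (largest shift 19.0 percentage points), without control replicate 3 (24.1) or without SRp55 siRNA replicate 1 (24.5), and present in 11 of 14 alternatives.

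PPP2R1A (ENSG00000105568.13; GRCh37, chromosome 19, 52693292 to 52730687, plus strand), the PR65 alpha scaffold, was the most abundant member. It stood at 205, 109, 145, 247 and 152 RPKM in control and at 221, 216, 179, 210 and 169 RPKM after SRp55 siRNA. The control libraries spanned the SRp55 siRNA range on both sides. The means were 172 ± 54.3 and 199 ± 23.6 RPKM, a log2 fold change of 0.15 (SE 0.20), and 0.02 (SE 0.08) on summed reads. PPP2R1A made up 86.3% ± 3.30 of the 2 scaffold genes' RPKM in control and 84.7% ± 2.28 in SRp55 siRNA libraries, and its share of their reads was lower with SRp55 siRNA in all 5 pairs (73.6% ± 4.73 and 71.2% ± 2.65) with overlapping groups.

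PPP2R1A RPKM was spread over 6 transcripts of at least 10% usage, several of them short and not annotated as coding. The leading one, ENST00000391791.4, held 25.2% ± 2.66 in control and 28.3% ± 1.79 in SRp55 siRNA libraries. The retained-intron transcript ENST00000473820.1 held 20.0% and 22.4%, and ENST00000444322.2, which is not in GENCODE 44, 17.9% and 17.7%. The nonsense_mediated_decay transcript ENST00000490868.1 held 13.0% and 12.1%. The most shifted, the 3281-base ENST00000322088.6, held 15.5% ± 12.0 and 8.67% ± 1.94, and its control mean includes 36.0% in replicate 2. The retained-intron transcript ENST00000468280.1 ranged from 0.060% to 20.2% between libraries of the SRp55 siRNA group and from 0.070% to 17.4% between controls, so its level differed more within groups than between them.

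PPP2CA (ENSG00000113575.5; GRCh37, chromosome 5, 133530025 to 133561833, minus strand), the alpha catalytic subunit, had the largest fold change of the members. It stood at 183, 108, 102, 208 and 85.0 RPKM in control and at 239, 222, 211, 258 and 135 RPKM after SRp55 siRNA. SRp55 siRNA was higher in all 5 same-numbered pairs, but control replicates 1 and 4 lay above SRp55 siRNA replicate 5. The means were 137 ± 54.8 and 213 ± 47.2 RPKM, a ratio of 1.55 and a log2 fold change of 0.58 (SE 0.27). The deposited log2 fold change that the call tests was 0.69, and PPP2CA was not called. With the replicate number as a block the SE was 0.14 and PPP2CA was called higher, as were 9.39% of all genes tested. On summed reads it went from 197 ± 28.9 to 259 ± 36.6 reads per M assigned, a log2 fold change of 0.41 (SE 0.12), and was called higher, as were 7.30% of all genes tested.

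The level of PPP2CA depends on 2 short transcripts. ENST00000231504.5 (564 bases) held 41.0% ± 6.25 of its RPKM in control and 43.9% ± 4.18 in SRp55 siRNA libraries, and ENST00000522385.1 (585 bases) 40.8% ± 3.50 and 42.3% ± 3.61. The full-length ENST00000481195.1 (4649 bases) held 16.6% ± 5.10 and 12.2% ± 1.37 of the RPKM, but 60.5% and 52.8% of the reads. Its own level was 20.7 ± 2.20 RPKM in control and 25.5 ± 4.03 RPKM after SRp55 siRNA.

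PPP2CB (ENSG00000104695.8; GRCh37, chromosome 8, 30631973 to 30671830, minus strand), the beta catalytic subunit, stood at 53.7, 43.6, 50.1, 54.6 and 41.8 RPKM in control and at 57.8, 68.2, 67.9, 63.3 and 53.9 RPKM after SRp55 siRNA. It too was higher in all 5 pairs, with an overlap of the lowest SRp55 siRNA library and the highest control. The means were 48.8 ± 5.83 and 62.2 ± 6.28 RPKM, a log2 fold change of 0.24 (SE 0.12). The deposited log2 fold change that the call tests was 0.35, and PPP2CB was not called. Its leading transcript ENST00000221138.4 held 58.4% ± 8.37 and 52.1% ± 4.69, and the most shifted, ENST00000518243.1, held 37.2% ± 9.42 and 43.9% ± 3.38. PPP2CA held 72.4% ± 5.70 of the catalytic pair's RPKM in control and 76.9% ± 3.75 in SRp55 siRNA libraries, higher in all 5 pairs with overlapping groups.

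PPP2R2A (ENSG00000221914.4; GRCh37, chromosome 8, 26149007 to 26230196, plus strand) encodes the B55 alpha regulatory subunit, which is known for dephosphorylation of mitotic kinase substrates. It averaged 59.5 ± 7.97 RPKM in control (46.6 to 68.5) and 69.2 ± 12.1 RPKM after SRp55 siRNA (53.4 to 84.7), a log2 fold change of 0.10 (SE 0.15). The leading transcript of its 23, ENST00000315985.7, held 35.7% ± 8.20 and 34.9% ± 3.27. ENST00000380737.3 held 19.5% ± 1.99 and 19.3% ± 2.70. The most shifted, ENST00000519439.1, was 7.79 percentage points lower in usage with SRp55 siRNA, with overlapping groups.

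The 5 B56 genes encode regulatory subunits that bind short motifs in their substrates. PPP2R5C (ENSG00000078304.15; chromosome 14, B56 gamma) was the most abundant of them, with 55.6 ± 12.1 RPKM in control (38.4 to 69.6) and 63.8 ± 12.5 RPKM after SRp55 siRNA (46.2 to 78.6). Its log2 fold change was 0.09 (SE 0.19) on RPKM and -0.05 (SE 0.09) on summed reads, so the sign differed between the scales. It made up 53.1% ± 5.29 and 55.8% ± 5.20 of the B56 genes' RPKM. Its RPKM was spread over 33 transcripts, of which the leading ENST00000557621.1 held 17.3% ± 5.66 and 21.0% ± 4.73, and the most shifted, ENST00000556218.1, was 5.30 percentage points higher with overlapping groups.

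PPP2R5D (ENSG00000112640.10; chromosome 6, B56 delta) averaged 15.8 ± 1.52 RPKM in control (14.3 to 17.8) and 18.2 ± 1.70 RPKM after SRp55 siRNA (16.2 to 20.2), higher in all 5 pairs, with a log2 fold change of 0.09 (SE 0.10). It had the second largest usage difference of the members, and it was not called. Its leading transcript ENST00000485511.1 held 40.5% ± 17.7 in control (26.2% to 61.1%) and 59.6% ± 22.4 in SRp55 siRNA libraries (27.1% to 81.6%), a difference of 19.0 percentage points smaller than the range within either group. ENST00000394110.3 held 33.6% ± 24.8 and 23.3% ± 19.9. MEA1 overlaps PPP2R5D by 249 bases on the other strand and averaged 44.2 RPKM over all libraries against 17.0 RPKM for PPP2R5D, and reads of the pair cannot be told apart there.

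PPP2R5E (ENSG00000154001.9; chromosome 14, B56 epsilon) was the member with the lowest fold change. It stood at 12.1, 13.2, 13.8, 13.0 and 11.1 RPKM in control and at 11.4, 11.4, 13.1, 12.6 and 8.61 RPKM after SRp55 siRNA. It was lower in all 5 same-numbered pairs, and the groups overlapped. The means were 12.6 ± 1.06 and 11.4 ± 1.75 RPKM, a log2 fold change of -0.26 (SE 0.12). The deposited log2 fold change that the call tests was -0.15, and PPP2R5E was not called. PPP2R5E held 22.6% ± 0.93 of the reads of the 5 B56 genes in control (21.1% to 23.4%) and 19.9% ± 0.68 in SRp55 siRNA libraries (18.8% to 20.5%), with no overlap. The read shares of the other B56 genes overlapped between groups, and no background for such shares was computed. On RPKM the share of PPP2R5E was 12.3% ± 0.97 and 10.1% ± 0.90, and the ranges overlapped. Its 3 main transcripts kept close proportions: ENST00000337537.3 held 58.5% ± 2.78 and 57.5% ± 3.06, and the most shifted, ENST00000555899.1, was 2.89 percentage points higher.

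PPP2R5A (ENSG00000066027.6; chromosome 1, B56 alpha) averaged 11.1 ± 1.46 RPKM in control (9.01 to 12.9) and 12.0 ± 1.88 RPKM after SRp55 siRNA (9.78 to 14.1), a log2 fold change of 0.00 (SE 0.13) whose sign held in 10 of 17 alternatives. PPP2R5B (ENSG00000068971.9; chromosome 11, B56 beta) averaged 8.69 ± 0.83 RPKM (7.60 to 9.80) and 8.21 ± 0.79 RPKM (7.28 to 8.98), a log2 fold change of -0.19 (SE 0.10). Neither had a second transcript past the filters of the usage test. ENST00000261461.2 held 98.0% ± 1.70 and 97.3% ± 1.31 of PPP2R5A, and ENST00000164133.2 held 93.2% ± 3.48 and 89.5% ± 3.30 of PPP2R5B. GPHA2 overlaps PPP2R5B by 3 bases and averaged 0.083 RPKM.

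**Figure D4:**
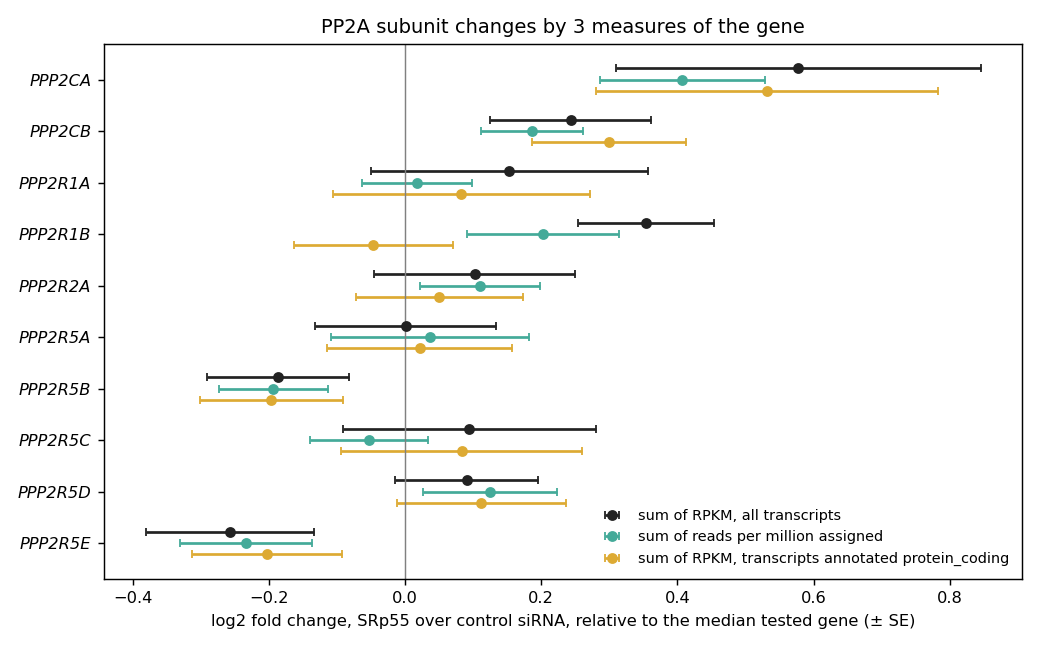
Log2 fold change of the 10 subunit genes, SRp55 siRNA over control siRNA relative to the median tested gene, with SE, from summed RPKM (black), summed reads (green) and RPKM of transcripts annotated protein_coding (yellow). PPP2R1B goes from 0.35 on summed RPKM to 0.20 on reads and -0.047 on coding transcripts, while PPP2CA stays between 0.41 and 0.58.

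The order of levels among control libraries depended on how transcripts were added. By summed RPKM it was PPP2R1A (172), PPP2CA (137), PPP2R2A (59.5), PPP2R5C (55.6), PPP2CB (48.8), PPP2R1B (25.6), PPP2R5D (15.8), PPP2R5E (12.6), PPP2R5A (11.1) and PPP2R5B (8.69). Ranges of neighbours in this order overlapped except between PPP2CA and PPP2R2A, between PPP2CB and PPP2R1B, between PPP2R1B and PPP2R5D and between PPP2R5D and PPP2R5E. When all reads of a gene were divided by its longest transcript, PPP2R1A remained first at 69.4 RPKM, PPP2CA (35.1) and PPP2CB (34.3) were close, and PPP2R5D (14.5) and PPP2R1B (14.3) were close.

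The 3 genes whose profile over the 10 libraries lay nearest to that of PPP2R1B were ITPRIPL1, ANO6 and SEC23A, with root mean square distances of 0.090, 0.091 and 0.097 on the log2 scale. Each gene's mean was subtracted first, and the 3 were taken from 11430 genes of at least 2 RPKM, whose median distance was 0.35. They were picked by this closeness, so their difference between groups follows from the choice and nothing is read from it. ITPRIPL1 averaged 3.57 ± 0.44 and 5.21 ± 0.56 RPKM, ANO6 (a membrane scramblase) 11.9 ± 0.97 and 16.7 ± 1.05 RPKM, and SEC23A (a COPII coat protein) 12.1 ± 0.71 and 16.3 ± 0.69 RPKM in control and SRp55 siRNA libraries.

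Another 42 genes of the phosphatase system were tested in 5 lists, and none was called in either direction with limma over all genes. With the replicate block 2 of the 42 were called higher and 2 lower, against 1280 (9.39%) and 504 of all 13630 tested genes. Without the block, 3 were higher and 3 lower at an unadjusted p under 0.05 in limma, or 14.3% of the 42, against 21.9% of all tested genes. Their median log2 fold change was -0.03, with 18 of 42 above the median tested gene, and 2 had groups that did not overlap, or 4.76% against the 7.92% of all tested genes. For transcript usage 40 could be tested and none was called, against 0.343% of the 9915 genes tested. At an unadjusted p under 0.05 in diffSplice there were 3. No such share over all genes was computed, so nothing is read from that count.

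Among the 9 other regulatory subunits, none was called. The B55 genes PPP2R2B, PPP2R2C and PPP2R2D had median-relative log2 fold changes of 0.23, -0.22 and 0.50. Their deposited log2 fold changes were 0.34, -0.12 and 0.61 (limma, adjusted p = 0.32, 0.72 and 0.22). PPP2R3A, PPP2R3B and PPP2R3C, of the PR72 family, had median-relative values of -0.17, 0.08 and 0.23 and deposited values of -0.06, 0.18 and 0.34 (limma, adjusted p = 0.86, 0.75 and 0.29). The striatins STRN, STRN3 and STRN4, scaffolds of the STRIPAK complex, had median-relative values of -0.11, -0.42 and -0.17 and deposited values of -0.0050, -0.32 and -0.06 (limma, adjusted p = 0.99, 0.15 and 0.87). STRN3 was lower in all 5 pairs, at 12.4 ± 1.91 and 9.82 ± 0.66 RPKM, and was called lower with the replicate block (limma, adjusted p = 0.048).

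None of the 5 assembly, methylation and chaperone factors was called. IGBP1, the alpha4 protein that holds free catalytic subunit, had the smallest adjusted p there (limma, 0.15, for a deposited log2 fold change of -0.28), at 15.9 ± 1.16 and 13.0 ± 1.43 RPKM and lower in all 5 pairs. It was called lower with the replicate block (limma, adjusted p = 0.034). With median-of-ratios scaling IGBP1 and STRN3 were called lower, at tested log2 fold changes of -0.39 and -0.42 (adjusted p = 0.021 and 0.030 in limma). That scaling split all calls into 433 higher and 500 lower, against 513 and 171 as deposited. None of the 10 inhibitors was called, and CIP2A, the cancerous inhibitor of PP2A, had the smallest adjusted p (limma, 0.084, for a deposited log2 fold change of 0.39), at 9.12 ± 1.26 and 12.0 ± 1.01 RPKM with no overlap. With the replicate block it was called higher (limma, adjusted p = 0.020). None of the 9 STRIPAK and Integrator partners was called, and STRIP2 had the smallest adjusted p (limma, 0.064, for a deposited log2 fold change of 0.51), at 2.64 ± 0.38 and 4.00 ± 0.83 RPKM with no overlap. With the replicate block it was called higher (limma, adjusted p = 0.024). None of the 9 catalytic subunits of the other PPP phosphatases was called, with PPP5C at the smallest adjusted p (limma, 0.36, for a deposited log2 fold change of 0.22). Genes other than the regulatory subunits were named in these lists after their values were seen.

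**Figure D5:**
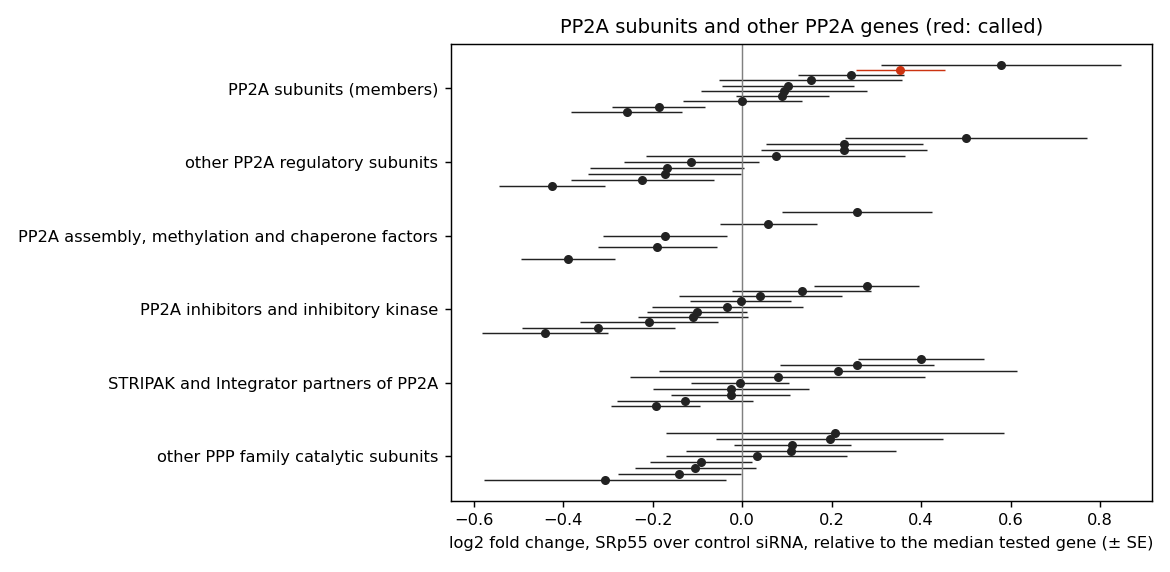
Log2 fold change with SE, relative to the median tested gene, for the 10 subunit genes and the 42 other genes in 5 lists, with a point per gene. PPP2R1B (red, 0.35) is the gene called, and the 5 lists lie on both sides of 0.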

How the data were processed

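Poly(A) RNA libraries of EndoC-βH1 cells were grouped by their labels into 5 control siRNA and 5 SRp55 siRNA libraries, and none was left out. The authors aligned reads with TopHat to GRCh37 (hg19), per the submitters' processing notes; the program that assigned reads to transcripts, its annotation release, software versions and strand use were not stated in the sources used. The deposited files list 155130 transcripts with an estimated read count and RPKM each, and the deposited RPKM equals reads divided by length and by a library total of 79.5 to 210.0 M reads (M, 10 to the power 6). Depth was 61.9 to 189.8 M assigned reads. The files give no error for the assignment of reads to overlapping transcripts.

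Gene values are sums of transcript RPKM. They were tested with limma 3.58.1 (R 4.3.3; trend and robust options) on log2(RPKM + 0.5) for genes of at least 0.5 mean RPKM, with Benjamini-Hochberg adjustment over all 13630 genes. This scale understates changes of low genes. Usage was tested with diffSplice on transcripts of at least 0.5 RPKM and 5% usage. Symbols (95.0% of genes), biotypes (92.4% of transcripts) and sequences come from GENCODE 44 (GRCh38) by Ensembl identifier. ENST00000527614.1 has 5587 bases in the files and 5553 in GENCODE 44. The test was checked on simulated data. Count models were not run, as reads are estimates held in a text field.

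Members and gene lists were chosen with earlier results of these data known. The rule for named genes took all members, SRSF6, the other regulatory subunits, called list genes and the 3 nearest profiles; other list genes, markers and overlapping genes were named after their values were seen. Equal replicate numbers pair the libraries: deviations from group means correlated at 0.13 to 0.41 within equal numbers and at -0.17 to 0.12 otherwise, and 10 of 10 libraries were closest to their own number. Alternatives covered the pseudocount, the filter, scaling, reads, the replicate block, each library left out and, chosen after seeing the data, sums over protein-coding transcripts.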

Additional observations from a re-analysis of the deposited data

Results flagged for a closer look

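Of 96 groups of 5 libraries examined, 4 held a library far from the other 4, and chance gives about 1 in 20. SRSF6 stood at 92.4 RPKM in control replicate 3 and between 99.5 and 100.0 RPKM in the other controls. The PPP2R1A transcript ENST00000444322.2 held 22.0% in SRp55 siRNA replicate 5 and 15.8% to 17.4% in the others of that group. The PPP2R5D transcript ENST00000394110.3 held 58.1% in SRp55 siRNA replicate 4 and 11.9% to 21.9% in the others. The PPP2R5E transcript ENST00000337537.3 held 53.6% in control replicate 4 and 59.5% to 60.4% in the others.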

How the results depend on the processing

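The count of PP2A subunits called higher (1) was 0 with median-of-ratios scaling and over protein-coding transcripts, 2 with the replicate block (PPP2CA and PPP2R1B), and 0 to 1 when a library was left out. PPP2R1B had a log2 fold change of -0.047 over protein-coding transcripts. No subunit was called lower in any of the 17 alternatives. Of the other 42 genes of the phosphatase system, 2 were called higher with the replicate block (STRIP2, CIP2A) and 1 over protein-coding transcripts (STRIP2). Called lower were 2 with median-of-ratios scaling (IGBP1, STRN3), 6 on summed reads (among them IGBP1 and STRN3) and 2 with the replicate block (IGBP1, STRN3). All genes called numbered 684 as deposited, 2340 on summed reads and 1784 with the replicate block. When a library was left out they numbered 259 (without control replicate 2) to 1083 (without control replicate 4). Calls split into higher and lower as 995 and 1345 on summed reads and as 1280 and 504 with the replicate block. They split as 433 and 500 with median-of-ratios scaling and as 394 and 195 over protein-coding transcripts. For transcript usage, 0 to 1 subunits and 0 to 1 of the 42 other genes (PPP1CB, a catalytic subunit of another phosphatase, without control replicate 2) were called when a library was left out. All genes called for usage numbered 34, 52 from reads, 19 with the stricter filter of 1 RPKM and 10% usage, and 24 to 52 when a library was left out. The cause of these differences was not tested. Assigned reads ranged from 61.9 to 189.8 M per library, and the part of depth was not tested. ENST00000534500.1 rests on at most 1038 reads per library.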
